A study of Mus musculus with 12 samples.

Results

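The 8 genes described here belong to the vascular endothelial growth factor (VEGF) and angiopoietin systems and were compared between 3 cell populations sorted from E7.5 mouse embryos. They are the VEGF receptor genes Flt1 and Flt4, the co-receptor genes Nrp1 and Nrp2, the ligand genes Vegfa and Vegfc, and the TIE receptor genes Tek and Tie1. They were chosen by Ensembl gene ID, and all 8 had a row among the 22400 gene rows. The deposited table holds IDs without names. The symbols of the 8 genes come from the list that chose them, and no other row could be named here, so Kdr (which encodes FLK1) and Foxf1 were not checked against the sort labels.

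VEGF ligands bind tyrosine kinase receptors on endothelial cells and their precursors, with neuropilins as co-receptors. FLK1, the main signalling receptor for VEGFA, marks the mesoderm from which blood and the first vessels arise, and its loss in the mouse abolishes both. The angiopoietin receptor TEK (TIE2) and its relative TIE1 act later, when vessels mature.

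All embryos carried a foxf1::venus knock-in on a C57BL/6 background, in which VENUS fluorescence reports Foxf1, a forkhead gene of the lateral and extra-embryonic mesoderm. Sorting gave FLK1 single-positive cells (FLK1-positive, FOXF1-negative), double-positive cells (positive for both) and FOXF1 single-positive cells (FLK1-negative, FOXF1-positive), with 2 sorts of 50 cells each, one Affymetrix exon array per sort. The design text calls the sorts biological replicates; the embryos behind each sort and the zygosity of the knock-in are not stated in the sources used here. Values are deposited log2 signals, in which 1 unit is a doubling. Array medians were 6.00 to 6.07 and all values lay between 3.11 and 14.17, while the 8 genes lay between 4.82 and 7.54. No detection calls were used, and a low signal is therefore not evidence of absence.

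None of the 8 genes passed an adjusted p of 0.05 in any of the 3 comparisons (limma over all 22400 rows, two-sided, Benjamini-Hochberg adjustment). The population means were farthest apart for Nrp1 (1.11 log2 units), lowest in FLK1 single-positive cells, and for Tie1 (0.96), lowest in FOXF1 single-positive cells. They spanned 0.75 for Nrp2, 0.69 for Vegfc and 0.61 for Tek. Tie1, Tek and the ligand gene Vegfc had lower signals on the FOXF1 single-positive arrays than on all 4 FLK1-positive arrays. The share of all rows in which both arrays of a population lay apart from all others was not counted. This separation, given below for Nrp1 and Nrp2 as well, is therefore a description only. For Vegfa and for Flt4, the 3 population means lay within 0.21 log2 units. The plot of signals by population shows every value.

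**Figure D1:**
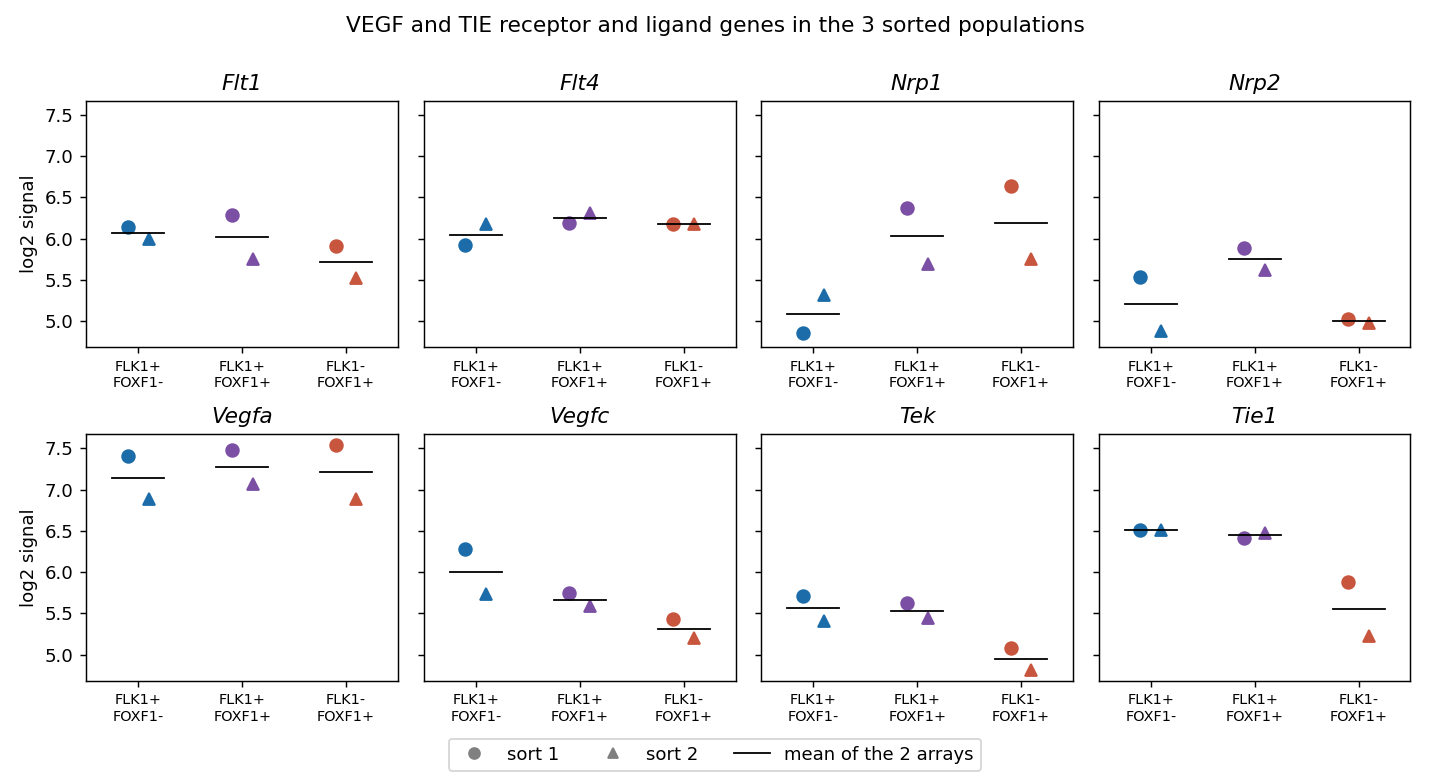
Log2 signal (y axis) of each of the 8 genes in the 3 sorted populations (x axis), with a circle for sort 1, a triangle for sort 2 and a line at the mean of the 2 arrays. Tie1, Tek and Vegfc are lowest on both FOXF1 single-positive arrays, and Nrp1 is lowest on both FLK1 single-positive arrays. The Vegfa sorts differ more than its population means. Heights are not comparable between genes.

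Among the receptors, Flt1 (ENSMUSG00000029648) encodes VEGFR1, a high-affinity VEGFA receptor with weak kinase activity whose soluble form limits VEGFA. Its signals in sort 1 and sort 2 were 6.14 and 6.00 in FLK1 single-positive cells, 6.28 and 5.75 in double-positive cells, and 5.91 and 5.52 in FOXF1 single-positive cells. The double-positive arrays spanned both FLK1 single-positive values and overlapped the FLK1-negative ones, while the FLK1 single-positive arrays lay above both FLK1-negative arrays. That last difference was 0.35 ± 0.26 log2 units (SE; limma adjusted p = 0.901), with a 95% interval from -0.27 to 0.97. Double-positive minus FLK1-negative cells gave 0.30 ± 0.26 (adjusted p = 0.9993), and the FLK1-positive populations differed by -0.05 ± 0.26 (adjusted p = 0.9999).

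Flt4 (ENSMUSG00000020357) encodes VEGFR3, the VEGFC receptor known for its role in lymphatic and early vascular development. It read 5.92 and 6.17 in FLK1 single-positive cells, 6.19 and 6.32 in double-positive cells, and 6.18 and 6.17 in FOXF1 single-positive cells. The populations did not overlap in any pair, but the gaps were within the spread between sorts. The double-positive mean was 0.21 ± 0.21 log2 units above the FLK1 single-positive mean (limma adjusted p = 0.9999, interval -0.28 to 0.70) and 0.08 ± 0.21 above the FLK1-negative mean (adjusted p = 0.9993). FLK1 single-positive minus FOXF1 single-positive cells gave -0.13 ± 0.21 (adjusted p = 0.977).

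The co-receptors had the widest differences between the FLK1-positive populations. Nrp1 (ENSMUSG00000025810) encodes neuropilin 1, which binds VEGFA and class 3 semaphorins. Its signals were 4.86 and 5.32 in FLK1 single-positive cells, 6.37 and 5.69 in double-positive cells, and 6.64 and 5.75 in FOXF1 single-positive cells. Both arrays of the FOXF1-negative population were below all 4 arrays of the FOXF1-positive ones, which overlapped each other. Double-positive cells were above FLK1 single-positive cells by 0.94 ± 0.37 log2 units, with an interval from 0.07 to 1.82 (limma unadjusted p = 0.0381, adjusted p = 0.9999). FLK1 single-positive minus FOXF1 single-positive cells gave -1.11 ± 0.37, with an interval from -1.98 to -0.23 (unadjusted p = 0.0200, adjusted p = 0.507). These comparisons share the FLK1 single-positive arrays. The FOXF1-positive populations differed by -0.16 ± 0.37 (adjusted p = 0.9993), and the difference between sorts reached 0.88 in FOXF1 single-positive cells.

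Nrp2 (ENSMUSG00000025969) encodes neuropilin 2, a co-receptor for VEGFC and for semaphorins. It read 5.54 and 4.89 in FLK1 single-positive cells, 5.88 and 5.62 in double-positive cells, and 5.02 and 4.98 in FOXF1 single-positive cells. Both double-positive arrays were above all others, and the remaining populations overlapped. Double-positive cells were above FOXF1 single-positive cells by 0.75 ± 0.27 log2 units (limma unadjusted p = 0.0258, adjusted p = 0.744, interval 0.12 to 1.38). They were above FLK1 single-positive cells by 0.54 ± 0.27 (adjusted p = 0.9999, interval -0.09 to 1.17). The FLK1 single-positive minus FOXF1 single-positive difference was 0.21 ± 0.27 (adjusted p = 0.965).

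Of the ligands, Vegfa (ENSMUSG00000023951) encodes the principal FLK1 ligand. Its signals were 7.40 and 6.89 in FLK1 single-positive cells, 7.48 and 7.07 in double-positive cells, and 7.54 and 6.89 in FOXF1 single-positive cells. The sorts differed by 0.42 to 0.65 log2 units, with sort 1 above sort 2 each time, and all 3 populations overlapped. No pair of population means differed by more than 0.13 log2 units. The interval of double-positive minus FLK1 single-positive cells ran from -0.60 to 0.86 (limma adjusted p = 0.9999). Double-positive minus FOXF1 single-positive cells gave 0.06 ± 0.31 (adjusted p = 0.9993), and FLK1 single-positive minus FOXF1 single-positive cells -0.07 ± 0.31 (adjusted p = 0.994).

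Vegfc (ENSMUSG00000031520) encodes the ligand of VEGFR3. It read 6.27 and 5.73 in FLK1 single-positive cells, 5.74 and 5.58 in double-positive cells, and 5.43 and 5.20 in FOXF1 single-positive cells. All 4 FLK1-positive arrays were above both FLK1-negative arrays, and the FLK1-positive populations overlapped. FLK1 single-positive cells were above FOXF1 single-positive cells by 0.69 ± 0.25 log2 units (limma unadjusted p = 0.0289, adjusted p = 0.571, interval 0.09 to 1.28). Double-positive cells were above FLK1-negative cells by 0.35 ± 0.25 (adjusted p = 0.9993), and double-positive minus FLK1 single-positive cells gave -0.34 ± 0.25 (adjusted p = 0.9999).

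Tek (ENSMUSG00000006386) encodes TIE2, the receptor bound by the angiopoietins. Its signals were 5.71 and 5.41 in FLK1 single-positive cells, 5.62 and 5.45 in double-positive cells, and 5.08 and 4.82 in FOXF1 single-positive cells. The FLK1-positive populations overlapped, and all 4 of their arrays lay above both FLK1-negative arrays. In these sorted pools, fewer cells expressing a gene and less RNA per cell cannot be told apart. FLK1 single-positive cells were 0.61 ± 0.23 log2 units above FOXF1 single-positive cells (limma unadjusted p = 0.0292, adjusted p = 0.571, interval 0.08 to 1.14). Double-positive cells were 0.58 ± 0.23 above them (unadjusted p = 0.0350, adjusted p = 0.812, interval 0.05 to 1.12). The difference between the FLK1-positive populations was -0.03 ± 0.23 (adjusted p = 0.9999), with an interval from -0.56 to 0.50.

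Tie1 (ENSMUSG00000033191) encodes an endothelial receptor related to TIE2 that can pair with it. It read 6.51 on both FLK1 single-positive arrays, 6.42 and 6.47 in double-positive cells, and 5.88 and 5.23 in FOXF1 single-positive cells. The 4 FLK1-positive arrays lay within 0.09 log2 units of each other, and both FLK1-negative arrays were below them and differed from each other by 0.65. FLK1 single-positive cells were above FOXF1 single-positive cells by 0.96 ± 0.26 log2 units, or 1.94-fold (limma unadjusted p = 0.00727, adjusted p = 0.329, interval 0.35 to 1.57). Double-positive cells were above them by 0.90 ± 0.26, or 1.86-fold (unadjusted p = 0.0100, adjusted p = 0.525, interval 0.29 to 1.50). Double-positive minus FLK1 single-positive cells gave -0.06 ± 0.26 (adjusted p = 0.9999). Tie1 had the smallest p of the 8 genes in both comparisons with FLK1-negative cells, which share the FLK1-negative arrays.

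**Figure D2:**
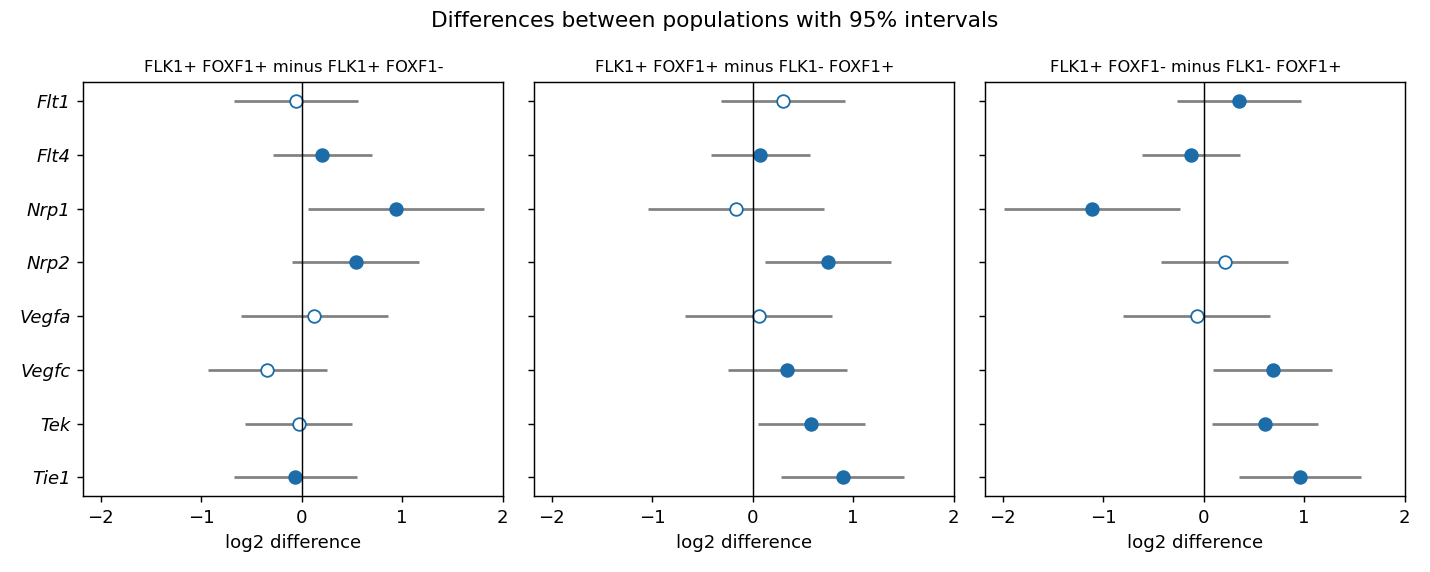
Log2 difference (x axis) of each gene (y axis) in the 3 comparisons, from limma, with 95% intervals as grey lines; filled circles mark genes whose arrays did not overlap between the populations compared, open circles those that overlapped. The intervals of Tie1 and Tek lie above 0 in both comparisons with FOXF1 single-positive cells, the interval of Nrp1 lies away from 0 in both comparisons with FLK1 single-positive cells, and none of these is adjusted for the number of rows tested.

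Counted over the group, double-positive minus FLK1 single-positive cells gave 0 of 8 genes past the adjusted threshold, against 0% of all rows. At an unadjusted limma p under 0.05 there was 1 of 8 (Nrp1), higher in double-positive cells, against 1.94% of rows. Arrays did not overlap for 3 genes higher in double-positive cells (Flt4, Nrp1 and Nrp2), where 15.7% of rows did so, and for 1 lower (Tie1), where 16.3% did. The median difference of the 8 genes was 0.05 log2 units and that of all rows 0.00.

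In double-positive minus FOXF1 single-positive cells, 0 of 8 genes passed, against 0.286% of rows. At an unadjusted p under 0.05 there were 3 of 8 (Nrp2, Tek and Tie1), all higher in double-positive cells, where 2.95% of rows were. Of the 8 genes, 7 had a positive difference, with Nrp1 the exception, and their median was 0.32 log2 units against -0.01 for all rows. Arrays did not overlap for 5 genes (Flt4, Nrp2, Vegfc, Tek and Tie1), all higher in double-positive cells, against 15.5% of rows. For Flt4 the means differed by only 0.08 log2 units.

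In FLK1 single-positive minus FOXF1 single-positive cells, 0 of 8 genes passed, against 0.545% of rows. At an unadjusted p under 0.05 there were 3 higher (Vegfc, Tek and Tie1), against 3.92% of rows, and 1 lower (Nrp1), against 3.36%. Arrays did not overlap for 4 genes higher (Flt1, Vegfc, Tek and Tie1) and 2 lower (Flt4 and Nrp1), against 17.3% and 17.9% of rows. For Flt4 the nearest arrays read 6.17409 in FLK1 single-positive and 6.17442 in FOXF1 single-positive cells. The median difference of the 8 genes was 0.28 log2 units, with a range from -1.11 to 0.96, and that of all rows was 0.00. The smallest difference called anywhere among all rows was 1.44 log2 units in this comparison and 1.57 in the one between double-positive and FLK1-negative cells, so every difference of the 8 genes was smaller than the smallest called one.

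Several of these genes differed in the same direction between the sorts of every population. Sort 1 was above sort 2 in all 3 populations for 5 of the 8 genes (Flt1, Nrp2, Vegfa, Vegfc and Tek), against 16.7% of all rows, and below it in all 3 for 0 of 8, against 14.1%. For Vegfa the difference between sorts was 0.52, 0.42 and 0.65 log2 units in FLK1 single-positive, double-positive and FOXF1 single-positive cells. For Tek it was 0.31, 0.17 and 0.26, less than the 0.61 and 0.58 that separated the FLK1-positive from the FLK1-negative population means. Each population held 1 array numbered sort 1 and 1 numbered sort 2. The sample labels do not say whether a sort number stands for the same sort in every population.

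The sequences before the starts of Tie1 and Tek, whose signals were lowest in the same population, and of Nrp1, whose signal was lowest in another, are shown to set these genes side by side. Each run is the 250 bases before the RefSeq start (GRCm38.p6), in the direction of the gene, with GGAA and its reverse complement TTCC, the core bound by ETS factors, in capitals. The Tie1 run lies at chr4:118489850-118490099 on the minus strand, that of Tek at chr4:94739039-94739288 on the plus strand and that of Nrp1 at chr8:128358823-128359072 on the plus strand.
Tie1: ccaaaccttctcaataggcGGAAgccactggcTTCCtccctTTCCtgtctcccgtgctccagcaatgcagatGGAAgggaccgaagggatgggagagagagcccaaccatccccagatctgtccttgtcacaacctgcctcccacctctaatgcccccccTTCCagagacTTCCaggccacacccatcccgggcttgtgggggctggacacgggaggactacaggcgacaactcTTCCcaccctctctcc
Tek: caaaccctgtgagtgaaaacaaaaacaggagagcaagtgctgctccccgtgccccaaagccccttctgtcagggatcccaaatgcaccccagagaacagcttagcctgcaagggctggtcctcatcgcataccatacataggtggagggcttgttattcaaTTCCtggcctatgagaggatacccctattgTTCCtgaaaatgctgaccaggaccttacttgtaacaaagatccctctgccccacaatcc
Nrp1: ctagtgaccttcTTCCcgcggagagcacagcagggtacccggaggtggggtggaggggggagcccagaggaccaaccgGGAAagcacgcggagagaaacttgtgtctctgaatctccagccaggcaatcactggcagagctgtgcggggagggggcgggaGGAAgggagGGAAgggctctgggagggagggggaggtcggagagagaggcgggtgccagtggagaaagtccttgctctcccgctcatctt

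Tie1 held 7 such cores, 2 as GGAA and 5 as TTCC, Nrp1 held 4 and Tek held 2. Vegfc, whose signals were also lowest on both FOXF1 single-positive arrays and whose run is not shown, held 1. Of the others, Flt1 held 4, Flt4 held 2, Nrp2 held 1, and the promoters of Vegfa held 6 and 2. The median over 32851 RefSeq promoters of this length was 3, and 93.4% held at least 1. RefSeq gave a promoter for all 8 genes and a pair of them for Vegfa. The longer AGGAAG, which contains GGAA, was found on either strand for Flt1, Nrp1 and Tie1, and in 29.5% of all promoters. The forkhead core TGTTTAC was in 0 of the 9 promoters of these genes and in 3.17% of all, and ACGTG, a core of hypoxia response elements, was in 1 of the 9, at Vegfa, and in 16.6% of all. These are matches of letters and not sites shown to be bound.

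The exon-level table of the same arrays bears on how each gene value was built. For Flt1, Nrp2, Vegfa and Tie1, the gene value equalled some probe set value on all 6 arrays to within 5e-07, and 1 probe set for each of them did so on more than 1 array. Such equality ties a probe set to a gene only by its values, since probe sets are not named here. For Vegfa, probe set 5201661 equalled the gene value on 5 arrays and read 7.10 against 7.54 on the remaining one, FOXF1 single-positive sort 1. For Flt4 and Nrp1 an equal probe set was found on 2 arrays, for Vegfc on 1 and for Tek on 0. For these genes no probe set was equal on more than 1 array. How often matches on an array arise by coincidence was not worked out.

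The Tie1 probe set did not follow its gene value in FLK1-negative cells. Probe set 4726582 equalled the Tie1 value on 3 arrays (both FLK1 single-positive sorts and double-positive sort 2), by which it was picked. It read 6.51 and 6.51 in FLK1 single-positive cells and 6.14 and 6.47 in double-positive cells, but 6.56 and 7.96 in FOXF1 single-positive cells. It was thus highest where the gene value was lowest, and the difference of FLK1 single-positive minus FOXF1 single-positive cells was -0.75 ± 0.46 log2 units (limma over all probe sets, adjusted p = 0.892). Double-positive minus FOXF1 single-positive cells gave -0.96 ± 0.46 (adjusted p = 0.970). These differences belong to a single probe set, tied to Tie1 only by equal values, and do not test the direction of the gene value.

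For Nrp2, probe set 4760259 equalled the gene value on 4 arrays, by which it was picked. Its likeness to the gene value is therefore no separate support for it. The probe set was highest in double-positive cells. It read 4.08 and 4.89 in FLK1 single-positive cells, 5.88 and 6.06 in double-positive cells, and 5.02 and 4.98 in FOXF1 single-positive cells. Double-positive minus FLK1 single-positive cells gave 1.49 ± 0.32 log2 units (limma unadjusted p = 0.00296, adjusted p = 0.680), against 0.54 for the gene value. The other two populations stood in the opposite order to the gene value, with FLK1 single-positive minus FOXF1 single-positive cells at -0.52 ± 0.32 (adjusted p = 0.896) against 0.21. For Flt1, probe set 5575596 was picked in the same way, by equalling the gene value on 2 arrays. As for Tie1, these probe sets do not test the direction of the gene values. The Flt1 probe set read 6.51 and 6.00, 7.56 and 5.75, and 6.87 and 6.66 in the same order of populations. Both FLK1 single-positive arrays were below both FOXF1 single-positive ones, opposite to the gene values, with a difference of -0.51 ± 0.57 log2 units (limma adjusted p = 0.974), and the double-positive arrays spanned both.

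**Figure D3:**
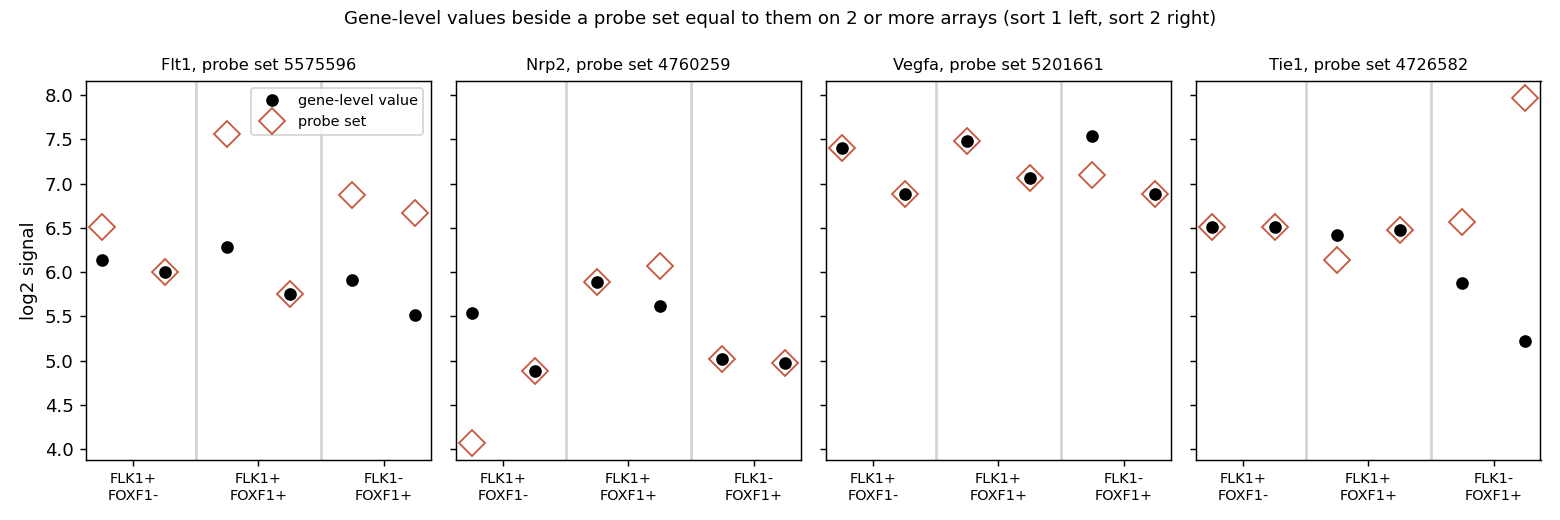
Log2 signal (y axis) of the gene-level value (black circles) and of the probe set that equalled it on 2 or more arrays (open diamonds) for Flt1, Nrp2, Vegfa and Tie1, on the 6 arrays (x axis, sort 1 to the left within each population). Circle and diamond coincide on 5 arrays for Vegfa and 4 for Nrp2, while for Tie1 the diamonds stand above the circles on both FOXF1 single-positive arrays.

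Of the 8 genes, Nrp1 had the widest range of population means, at 1.11 log2 units. The gene rows most like it over the 6 arrays, among 1076 rows whose own means spanned at least 1 log2 unit, were ENSMUSG00000028011 (Pearson r = 0.953) and ENSMUSG00000035273 (r = 0.931), given as a description over 6 arrays. ENSMUSG00000028011 read 4.65 and 5.04 in FLK1 single-positive cells, 6.37 and 5.91 in double-positive cells, and 7.74 and 6.00 in FOXF1 single-positive cells. ENSMUSG00000035273 read 4.23 and 4.31, 5.48 and 5.24, and 5.79 and 5.32.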

How the data were processed

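Log2 signals were used as deposited by the authors. Affymetrix Power Tools and RMA are the programs listed, with no version, per the submitters' processing notes. The genome build and the grouping of probe sets into genes are not given in the sources used here. All 6 arrays were deposited at both gene and probe set level (12 samples) and counted once each. Of all gene values, 21.7% had a nonzero sixth decimal, always a 5. RMA tends to compress large differences, and the number of arrays limits the precision.

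A limma model (version 3.58.1, R 4.3.3; lmFit, eBayes) with the population as its factor was fitted to every row over the 6 arrays, with 3 residual degrees of freedom and 4.27 from the prior. All 3 contrasts were two-sided, and Benjamini-Hochberg adjustment ran over 22400 rows at 0.05. The fit was tested on simulated data. The genes and lists were chosen with earlier results of these data known. All 8 genes are named; the rows most like the widest-ranging one were taken by Pearson r. The reference table matched 0 of 22400 row IDs, so the planned pathway and cell type marker lists were not used. Whether sorts pair samples was checked by correlating sort differences between populations (r = 0.137, 0.0975 and 0.0591), which were not all over 0.1. The alternatives were renormalization, centring, a filter on dim rows, another prior, fewer populations, the sort as a block and leaving out each array; the probe sets were chosen after seeing the data. Promoters came from RefSeq.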

Additional observations from a re-analysis of the deposited data

How the results depend on the processing

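The count of genes past the adjusted threshold stayed at 0 in all 3 comparisons under every alternative run, including the sort number as a replicate block (0, 0 and 0). The smallest limma adjusted p of the 8 genes ranged over the alternatives from 0.807 to 0.9999 in double-positive minus FLK1 single-positive cells, from 0.321 to 0.878 in double-positive minus FOXF1 single-positive cells and from 0.196 to 0.563 in FLK1 single-positive minus FOXF1 single-positive cells. At an unadjusted p under 0.05 the alternatives gave 0 to 1, 0 to 3 and 1 to 4 genes, and the block gave 1, 3 and 4, as without it. The filter on the dimmer 50% of rows left 3 of the 8 genes (Flt4, Vegfa and Tie1). Flt1, Nrp1, Nrp2, Vegfc and Tek lay in the dimmer part and have no result under this filter. No difference changed sign outside the fits that left out 1 array, where 7 of 24 did. In double-positive minus FLK1 single-positive cells, Flt1 ranged from -0.32 to 0.21 and Tek from -0.18 to 0.13, turning without FLK1 single-positive sort 1 or double-positive sort 2, and Vegfa from -0.13 to 0.39, turning without FLK1 single-positive sort 2 or double-positive sort 1. In double-positive minus FOXF1 single-positive cells, Nrp1 ranged from -0.60 to 0.28, turning without double-positive sort 2 or FOXF1 single-positive sort 1, and Vegfa from -0.27 to 0.39, turning without double-positive sort 1 or FOXF1 single-positive sort 2. In FLK1 single-positive minus FOXF1 single-positive cells, Nrp2 ranged from -0.11 to 0.54, turning without FLK1 single-positive sort 1, and Vegfa from -0.39 to 0.26, turning without FLK1 single-positive sort 2 or FOXF1 single-positive sort 1. Among the wider differences, leaving out 1 array gave, in double-positive minus FLK1 single-positive cells, 0.60 (without double-positive sort 1) to 1.29 for Nrp1 and 0.21 (without FLK1 single-positive sort 2) to 0.86 for Nrp2. In FLK1 single-positive minus FOXF1 single-positive cells it gave -1.55 to -0.66 (without FOXF1 single-positive sort 1) for Nrp1, 0.41 (without FLK1 single-positive sort 1) to 0.96 for Vegfc, 0.46 to 0.77 for Tek and 0.63 (without FOXF1 single-positive sort 2) to 1.28 for Tie1. In double-positive minus FOXF1 single-positive cells it gave 0.62 to 0.89 for Nrp2, 0.45 to 0.71 for Tek and 0.57 (without FOXF1 single-positive sort 2) to 1.22 for Tie1. The largest unadjusted limma p in these fits was 0.216 and 0.131 for Nrp1, 0.464 and 0.121 for Nrp2, 0.181 for Vegfc, 0.149 and 0.158 for Tek and 0.0477 and 0.0664 for Tie1, in that order. The tests of the pathway list were not run for lack of names.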
